A study of Mus musculus with 8 samples.

Results

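The genes of the 3 D-type cyclins, their kinase partners Cdk4 and Cdk6, the CDK inhibitors Cdkn1a, Cdkn1b, Cdkn2c and Cdkn2d, and the retinoblastoma gene Rb1 were measured in lung macrophages with and without an intact Pparg gene. These 10 genes were chosen by symbol, from the probe sets that the platform annotation ties to a single gene, and they are 10 of the 18782 genes measured. They have 11 such probe sets among 28874. Only Cdkn1b has more than 1, and the brighter set was used for it, with the other given beside it. A further probe set carries the symbol Ccnd1 together with that of a neighbouring gene and was left out.

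Control mice (PPARg fl/fl, written WT here) carried loxP sites in Pparg and no recombinase. Knockout mice (CD11cCre/PPARg fl/fl, written KO) also carried Cre under the control of CD11c, so that the flanked part of Pparg is deleted in any cell that expresses CD11c, dendritic cells included. All mice were on the C57BL/6 background. Cells were taken on day 2 after birth (WT d2 and KO d2), when the labels call them pre-alveolar macrophages, and on day 11 (WT d11 and KO d11), when they call the control cells mature and the knockout cells arrested. Each of the 4 groups had 2 arrays, described as biological replicates, and cells of 2 mice went into every array. The day 2 sort took live CD45+ F4/80+ cells with high CD11c from a pair of gates. One held cells intermediate in both Siglec-F and CD11b, and the other held cells with little Siglec-F and much CD11b. The labels do not say which genotype was sorted from which gate. The day 11 sort took CD45+ Siglec-F+ cells with strong CD11c and autofluorescence, and here the CD11b gate was low for control mice and high for knockout mice. At day 11 the deletion and the gate therefore cannot be told apart, and neither can age and gate across the 2 days.

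Growth factors act on the cell cycle in large part through the D-type cyclins. A D cyclin binds CDK4 or CDK6, and the kinase phosphorylates the retinoblastoma protein and its relatives, which then let go of E2F factors so that genes of DNA replication are transcribed. INK4 proteins, among them p18 (from Cdkn2c) and p19 (from Cdkn2d), bind CDK4 and CDK6 and block them. The proteins p21 (from Cdkn1a) and p27 (from Cdkn1b) inhibit the cyclin E and cyclin A kinases and also help to assemble D cyclin complexes, and Cdkn1a is a textbook target of p53. Alveolar macrophages keep their numbers by dividing in place, and cells around birth divide while the population fills the lung. Which D cyclin a cell uses differs between cell types.

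Values are RMA signals on the log2 scale, on which a step of 1 is a 2-fold difference, and levels of different genes cannot be set against each other on arrays. Every array had the same median of 5.35 and the same range, from 2.354 to 13.01. Differences come with their standard error (SE) from limma, and a gene was called when its p adjusted by the Benjamini-Hochberg method over all 18782 genes was under 0.05. In bulk samples, fewer cells of a type and less RNA per cell cannot be told apart. Nothing says that the cells of different arrays came from separate litters, so the p-values measure the spread between these pools alone.

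Pparg itself is a weak check of the labels here, since the signal of this probe set may come from outside the deleted part. It was 10.89 and 11.01 in WT d2 against 10.55 and 10.74 in KO d2, and 11.18 and 11.13 in WT d11 against 11.32 and 11.36 in KO d11. Alveolar macrophage markers differed between the genotypes: of 14 measured, 11 were called lower in KO at day 2 and 9 at day 11, and none higher. The marker lists were chosen with earlier results of these data known, so these counts are no independent check of the labels. Cidec, a lipid droplet gene, stood at 10.07 and 10.15 in WT d2 and at 5.935 and 6.227 in KO d2. Monocyte markers were called higher in KO for 8 of 9 at day 2 and for 4 of 9, with 1 lower, at day 11. Their median signal was 8.107 and 8.044 in WT d2, 9.841 and 10.2 in KO d2, 6.229 and 6.077 in WT d11, and 7.385 and 7.293 in KO d11. Dendritic cell markers were higher for 7 of 12 at day 2 and for 2 of 12, with 1 lower, at day 11, and neutrophil markers for 7 and 2 of 11, with 1 lower at each age. Of all genes, 8.86% were higher and 11.2% lower in KO at day 2, and 9.34% and 9.29% at day 11. The dendritic cell median was 4.732 to 4.893 in WT d2 and 5.413 to 5.513 in KO d2, and the neutrophil median 4.755 to 4.903 and 6.049 to 6.111. At day 11 both medians lay between 4.861 and 5.157 in both genotypes, but single markers differed. Clec9a, of the dendritic cell list, read 6.138 and 5.824 in WT d11 and 8.778 and 9.28 in KO d11. Mmp8, of the neutrophil list, read 8.063 and 7.639 in WT d11 and 11.07 and 11.09 in KO d11. In each list 1 marker was called lower in KO, as counted above. The part of these cells in the differences described here was not tested. Replicate 1 of KO d2 also stood apart: the median of 17 interferon response genes was 9.305 there, against 5.662 in replicate 2 of that group and 4.837 to 5.392 on the other 6 arrays. The mean of 3 Y-linked genes was 4.371 on that array and 6.186 in WT d2 replicate 1, against 7.438 to 8.319 on the others. The X-linked gene Xist read 3.379 in WT d2 replicate 2 and 3.463 in KO d11 replicate 1, against 9.848 to 10.68 on the others. The labels give no sex. Because KO d2 replicate 1 stood apart, results at day 2 are given with and without it where it mattered.

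Promoter stretches are given for 4 genes, all of which differed between the genotypes at 1 age or both. Cdkn1a, Cdk6 and Cdkn2c belong to the 10 genes. Uhrf1 is a replication gene with an E2F match and is not an unchanged comparison. It was lower in KO cells at day 11 (log2 difference -1.467, limma adjusted p = 7.66e-05). The stretches are the 250 bases before an annotated start in RefSeq, build GRCm38.p6, read 5′ to 3′ on the gene's strand. The reference table held such a stretch for 7 of the 10 genes, in 10 windows. It held none for Ccnd1, Ccnd2 or Rb1, so no motif was searched in those genes. Capitals mark a p53 response element with at most 1 mismatch in Cdkn1a (chr17:29090729-29090978, plus strand), GC boxes (GGGCGG) in Cdkn2c (chr4:109666757-109667006, minus strand), and an E2F element in Uhrf1 (chr17:56304063-56304312, plus strand). Cdk6 (chr5:3343643-3343892, plus strand) has no capitals because no searched motif was found in it.
Cdkn1a: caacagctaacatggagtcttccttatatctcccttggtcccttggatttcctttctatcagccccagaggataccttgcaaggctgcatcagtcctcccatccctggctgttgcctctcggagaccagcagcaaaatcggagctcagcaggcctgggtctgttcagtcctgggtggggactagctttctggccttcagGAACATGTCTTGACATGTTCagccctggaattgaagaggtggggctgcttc
Cdk6: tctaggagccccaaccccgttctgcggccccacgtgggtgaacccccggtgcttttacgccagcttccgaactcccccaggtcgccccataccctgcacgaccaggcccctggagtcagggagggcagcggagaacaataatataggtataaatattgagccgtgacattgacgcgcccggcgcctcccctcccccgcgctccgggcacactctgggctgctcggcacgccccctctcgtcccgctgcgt
Cdkn2c: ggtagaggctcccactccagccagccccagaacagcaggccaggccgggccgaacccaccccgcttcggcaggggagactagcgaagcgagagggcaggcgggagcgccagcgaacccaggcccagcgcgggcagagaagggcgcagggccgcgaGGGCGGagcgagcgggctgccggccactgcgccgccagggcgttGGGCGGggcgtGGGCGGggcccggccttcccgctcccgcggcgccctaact
Uhrf1: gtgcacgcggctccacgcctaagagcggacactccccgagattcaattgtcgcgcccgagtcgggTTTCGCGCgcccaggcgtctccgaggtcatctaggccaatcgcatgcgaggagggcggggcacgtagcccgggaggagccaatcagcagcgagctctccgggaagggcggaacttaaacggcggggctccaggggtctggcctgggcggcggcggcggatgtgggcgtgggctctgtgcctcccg

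The E2F search used TTTCCCGC, TTTCGCGC, TTTGCCGC and TTTGGCGC on both strands, and 1.86% of 32817 promoters of the same length hold a match. None of the 10 windows did, and none held the CHR motif TTTGAA, which 16% of promoters hold. Ccnd3 was the only D cyclin gene among them. The p53 element is in 0.0762% of promoters, and 1 of the 2 Cdkn1a windows has it, 51 bases before the annotated start of that window. The other Cdkn1a window (chr17:29093519-29093768), at a start further downstream, has none. Cdkn2c has 3 GC boxes in the window shown, and 7 of the 10 windows hold at least 1, as 32.7% of promoters do; that of Cdkn2d also has 3. The motif CCAAT, in 33.8% of promoters, is in 3 of the 10 windows, those of Cdkn1b, Cdkn2d and 1 of 2 of Ccnd3. Uhrf1, which maintains DNA methylation during replication, has its E2F match 185 bases before the start. Among the replication genes described further on, 8 of 26 with a promoter held an E2F match, against 1 of 22 mitosis genes. A match is a string of letters and not a measured binding site.

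The D cyclins gave the largest differences among the 10 genes, and 2 of them went in opposite directions. Ccnd1, the cyclin most often tied to mitogen and adhesion signals, was higher in KO cells at both ages. Its signal was 7.061 and 7.15 in WT d2 and 9.078 and 8.848 in KO d2, then 6.598 and 6.831 in WT d11 and 8.841 and 9.245 in KO d11. All 4 KO arrays lay above all 4 WT arrays, with a gap of more than 1 log2 unit between them. The difference was 1.86 ± 0.15 (SE) at day 2, a 3.62-fold rise with a limma adjusted p of 0.000112, and 2.33 ± 0.15 at day 11, a 5.02-fold rise with an adjusted p of 4.25e-05. It ranked 205 from the top of 18782 genes at day 2 and 54 from the top at day 11. Without KO d2 replicate 1 the day 2 difference was 1.74 (adjusted p = 0.000639).

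Ccnd2, the D cyclin of many blood cell lineages, was lower in KO cells at both ages. The WT d2 arrays read 10.92 and 10.93 and the KO d2 arrays 8.577 and 8.304, while WT d11 read 11.23 and 11.26 and KO d11 8.623 and 9.159. No KO array came within 1 log2 unit of a WT array. The fall was 5.6-fold at day 2 (log2 difference -2.48 ± 0.16, limma adjusted p = 4.82e-05) and 5.11-fold at day 11 (-2.35 ± 0.16, adjusted p = 6.09e-05). It ranked 19 from the bottom of all genes at day 2 and 27 from the bottom at day 11. Without KO d2 replicate 1 the day 2 difference was -2.62 (adjusted p = 0.000176). Within each genotype the 2 Ccnd2 arrays of a WT group were closer together (SD 0.01 at day 2 and 0.02 at day 11, n = 2) than those of a KO group (SD 0.19 and 0.38, n = 2).

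Ccnd3, the third D cyclin, which is also widespread in blood cells, showed no called difference between genotypes. It read 8.882 and 9.064 in WT d2, 8.952 and 9.25 in KO d2, 8.821 and 8.801 in WT d11, and 8.873 and 8.759 in KO d11. The arrays of the genotypes overlapped at both ages. The 95% interval of the KO minus WT difference ran from -0.12 to 0.38 at day 2 and from -0.25 to 0.26 at day 11, so a change of the size seen for Ccnd1 or Ccnd2 lies outside both.

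**Figure D1:**
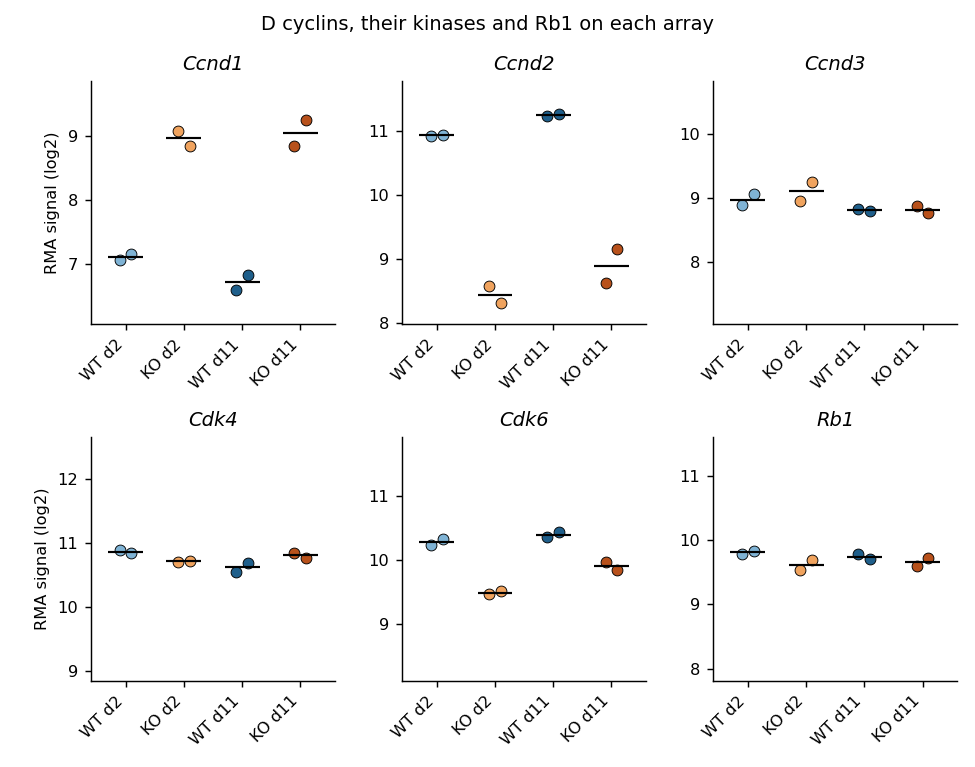
RMA signal (log2) of the D cyclins, their kinases and Rb1 on each array (points) with group means (bars); every panel spans the same number of log2 units. Ccnd1 lies between 8.841 and 9.245 on the KO arrays and between 6.598 and 7.15 on the WT arrays, Ccnd2 goes the other way, and Ccnd3 overlaps.

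Of the kinases, Cdk6 fell in KO cells and Cdk4 gave no call between the genotypes. Cdk6, a partner of D cyclins that is prominent in blood cells, read 10.23 and 10.32 in WT d2 and 9.457 and 9.504 in KO d2, then 10.35 and 10.43 in WT d11 and 9.959 and 9.831 in KO d11. The KO arrays were below the WT arrays at each age. The difference was -0.79 ± 0.07 at day 2 (1.73-fold, limma adjusted p = 0.000223) and -0.495 ± 0.07 at day 11 (1.41-fold, adjusted p = 0.0024). Without KO d2 replicate 1 the day 2 difference was -0.77 (adjusted p = 0.00159).

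Cdk4, the other D cyclin kinase, read 10.89 and 10.84 in WT d2, 10.71 and 10.72 in KO d2, 10.55 and 10.69 in WT d11, and 10.85 and 10.77 in KO d11. KO arrays were below WT arrays at day 2 and above them at day 11, but neither difference was called (-0.15 ± 0.07, limma adjusted p = 0.197; 0.19 ± 0.07, adjusted p = 0.114). Rb1, the pocket protein that the kinases phosphorylate, read 9.794 and 9.837 in WT d2, 9.538 and 9.693 in KO d2, 9.783 and 9.714 in WT d11, and 9.602 and 9.727 in KO d11. Its difference was -0.20 ± 0.08 at day 2 (adjusted p = 0.124, 95% interval -0.38 to -0.02) and -0.08 ± 0.08 at day 11 (adjusted p = 0.566, interval -0.27 to 0.10).

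The inhibitors did not move as a block. Cdkn2c, which encodes the INK4 protein p18, was lower in KO cells. It read 7.634 and 8.1 in WT d2 and 6.967 and 7.188 in KO d2, and 8.074 and 7.558 in WT d11 and 7.025 and 6.747 in KO d11. The KO arrays lay below the WT arrays at both ages, although replicates were further apart than for Cdk6 (SD 0.33, 0.16, 0.36 and 0.20 in WT d2, KO d2, WT d11 and KO d11, n = 2). The difference was -0.79 ± 0.21 at day 2 (1.73-fold, limma adjusted p = 0.0311) and -0.93 ± 0.21 at day 11 (1.91-fold, adjusted p = 0.0164). The call rests on single arrays: without WT d2 replicate 2 the day 2 adjusted p was 0.189 and without KO d2 replicate 1 it was 0.126, and at day 11 it was 0.106 without WT d11 replicate 1 and 0.0993 without KO d11 replicate 2.

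Cdkn1a, the p21 gene whose p53 element is shown above, was higher in KO cells at day 2. It read 11.18 and 11.33 in WT d2 and 11.73 and 11.77 in KO d2, and the difference of 0.495 ± 0.08 was called (1.41-fold, limma adjusted p = 0.00346). Without KO d2 replicate 1 it was 0.515 (adjusted p = 0.0138). At day 11 the arrays read 11.63 and 11.63 in WT and 11.78 and 11.94 in KO, which again did not overlap, but the difference of 0.23 ± 0.08 was not called (adjusted p = 0.0918).

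Cdkn1b, the p27 gene, read 9.122 and 9.036 in WT d2, 9.388 and 9.412 in KO d2, 9.474 and 9.309 in WT d11, and 9.426 and 9.188 in KO d11. At day 2 the KO arrays were higher by 0.32 ± 0.10, just short of a call (limma adjusted p = 0.0507), and at day 11 the arrays overlapped (-0.08 ± 0.10, adjusted p = 0.648). The other Cdkn1b probe set read 7.094 and 7.127 in WT d2, 7.43 and 7.474 in KO d2, 7.56 and 7.373 in WT d11, and 7.001 and 7.02 in KO d11. There the KO arrays were higher at day 2 by 0.34 (adjusted p = 0.0193 over all probe sets) and lower at day 11 by a log2 difference of -0.456 (adjusted p = 0.00565). The probe sets thus gave like values at day 2 and unlike values at day 11.

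Cdkn2d, which encodes the INK4 protein p19, differed little between the genotypes. It read 6.546 and 6.582 in WT d2, 6.5 and 6.544 in KO d2, 6.321 and 6.212 in WT d11, and 6.067 and 6.119 in KO d11. The KO minus WT difference was -0.04 ± 0.07 at day 2 (limma adjusted p = 0.734) and -0.17 ± 0.07 at day 11 (adjusted p = 0.12).

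**Figure D2:**
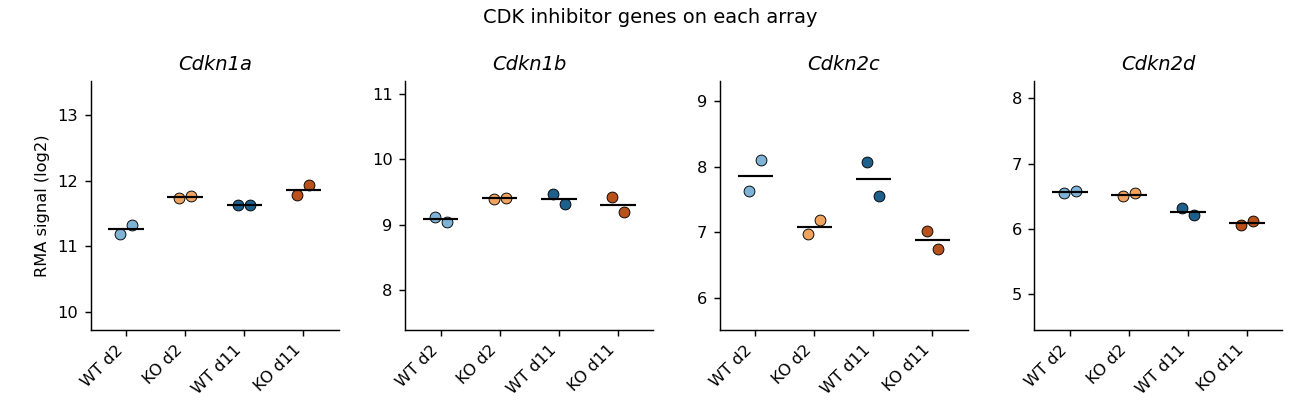
RMA signal (log2) of the 4 CDK inhibitor genes on each array (points) with group means (bars); every panel spans the same number of log2 units. Cdkn2c is lower on all KO arrays (6.747 to 7.188) than on all WT arrays (7.558 to 8.1), Cdkn1a is lowest in WT d2, and Cdkn2d is lower at day 11 than at day 2 in both genotypes.

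In all, 5 of the 10 genes were called at day 2, with Ccnd1 and Cdkn1a higher and Ccnd2, Cdk6 and Cdkn2c lower. The background is large: 20.1% of all genes were called in that comparison, 8.86% higher and 11.2% lower. At day 11, 4 of 10 were called, Ccnd1 higher and Ccnd2, Cdk6 and Cdkn2c lower, against 18.6% of all genes, 9.34% higher and 9.29% lower. The median log2 difference of the 10 genes was -0.10 at day 2 and -0.08 at day 11, against -0.03 and -0.002 for all genes. With so few genes, these counts describe the set and are not a test of it.

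Age changed fewer of them. In WT cells Cdkn1a rose from day 2 to day 11 (0.375 ± 0.08, limma adjusted p = 0.038) and Cdkn2d fell (-0.30 ± 0.07, adjusted p = 0.0425), which is 2 of 10 where 5.3% of all genes were called, 2.81% higher and 2.49% lower. Neither call was kept when any 1 of the 4 WT arrays was left out, with adjusted p from 0.0859 to 0.199 for Cdkn1a and from 0.108 to 0.196 for Cdkn2d. In KO cells Cdk6 rose (0.41 ± 0.07, adjusted p = 0.0084) and Cdkn2d fell (-0.43 ± 0.07, adjusted p = 0.00487), where 15.5% of all genes were called, 8.81% higher and 6.71% lower. The D cyclins gave no call with age: Ccnd1 differed by -0.39 ± 0.15 in WT (adjusted p = 0.173) and 0.08 ± 0.15 in KO (adjusted p = 0.793), and Ccnd2 by 0.32 ± 0.16 in WT (adjusted p = 0.315) and 0.45 ± 0.16 in KO (adjusted p = 0.112). Ccnd3 differed by -0.16 ± 0.11 in WT (adjusted p = 0.452) and -0.285 ± 0.11 in KO (adjusted p = 0.131). Some alternatives gave calls: Ccnd2 in KO cells without KO d11 replicate 1 (adjusted p = 0.0123), Ccnd2 in WT cells in a fit of the 4 WT arrays alone (0.0309), and Ccnd3 in KO cells without KO d2 replicate 1 (0.0425) or with the Y-linked mean as a covariate (0.0137).

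**Figure D3:**
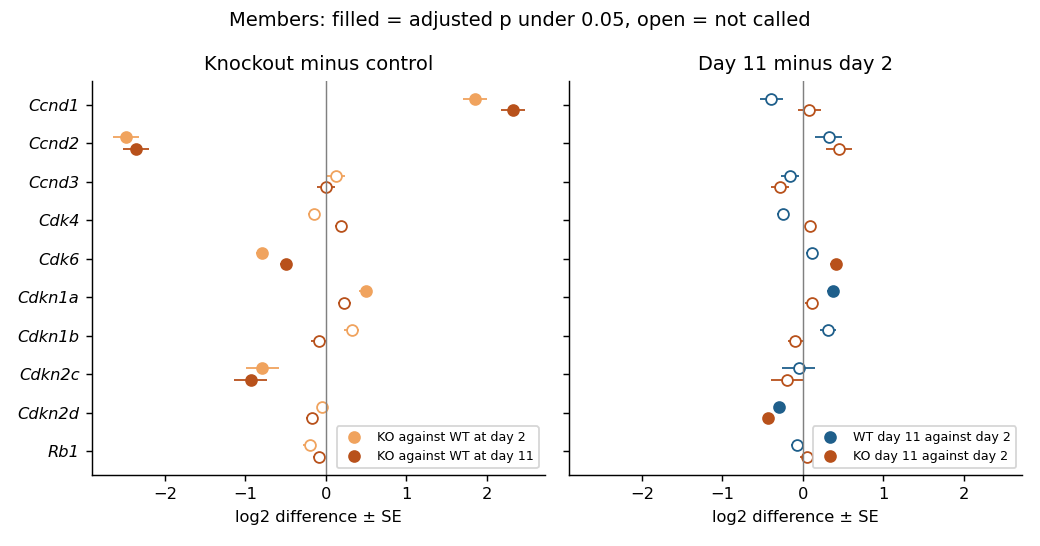
Log2 differences of the 10 genes with their SE (lines), KO minus WT on the left and day 11 minus day 2 on the right; filled points have a limma adjusted p under 0.05. Ccnd1 (1.86 and 2.33) and Ccnd2 (-2.48 and -2.35) stand far from 0 on the left, while no gene reaches 1 log2 unit on the right.

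The order of the 4 group means followed genotype for the genes with the largest differences. For Ccnd1 it ran KO d11, KO d2, WT d2, WT d11 from high to low, and of the neighbouring pairs only KO d2 and WT d2 differed (limma adjusted p = 0.000112). For Ccnd2 it ran WT d11, WT d2, KO d11, KO d2, and only WT d2 and KO d11 differed among neighbours (adjusted p = 0.000104). Cdk6 had that same order, and there KO d11 also stood above KO d2 (adjusted p = 0.0084). Cdkn2c ran WT d2, WT d11, KO d2, KO d11, with a call only between WT d11 and KO d2 (adjusted p = 0.0367), which was lost in 7 of 17 alternative settings (0.151 without KO d2 replicate 1, 0.0542 without KO d2 replicate 2 and 0.216 without WT d11 replicate 1). Cdkn2d was ordered by age instead, WT d2, KO d2, WT d11, KO d11, with a call between KO d2 and WT d11 (adjusted p = 0.0266), which was lost in 6 of 17 (0.0663 without KO d2 replicate 1, 0.102 without KO d2 replicate 2 and 0.148 without WT d11 replicate 2). For Cdkn1a, lowest in WT d2, only WT d11 and WT d2 differed among neighbours (adjusted p = 0.038). No neighbouring pair of Ccnd3, Cdk4, Cdkn1b or Rb1 was called.

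Groups that differ in both genotype and age were compared as well. KO d11 against WT d2, the knockout cells that the labels call arrested against the control precursors, called 6 of the 10 genes where 25.6% of all genes were called. Ccnd1 (1.94 ± 0.15, limma adjusted p = 7.98e-05) and Cdkn1a (0.605 ± 0.08, adjusted p = 0.00117) were higher, and Ccnd2 (-2.03 ± 0.16, adjusted p = 0.000104), Cdk6 (-0.38 ± 0.07, adjusted p = 0.00688), Cdkn2c (-0.98 ± 0.21, adjusted p = 0.0104) and Cdkn2d (-0.47 ± 0.07, adjusted p = 0.00154) were lower. Without WT d2 replicate 2 the calls of Cdk6 (adjusted p = 0.0535) and Cdkn2c (0.0731) were lost, as was that of Cdkn2c without KO d11 replicate 2 (0.0659). KO d2 against WT d11 called 5, where 22.3% of all genes were called. Ccnd1 (2.25 ± 0.15, adjusted p = 2.82e-05) was higher and Ccnd2 (-2.80 ± 0.16, adjusted p = 1.71e-05), Cdk6 (-0.91 ± 0.07, adjusted p = 8.21e-05) and Cdkn2c were lower, as in the first of these comparisons, whereas Cdkn2d was higher (0.26 ± 0.07, adjusted p = 0.0266) and Cdkn1a was not called (0.12 ± 0.08, adjusted p = 0.366). These comparisons share groups with those above and are not independent of them.

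Whether the genotype difference itself changed between day 2 and day 11 was tested with an interaction term. None of the 10 genes was called by limma, and 3.27% of all genes were called. An unadjusted p under 0.05 was found for 4, namely Cdk4, Cdk6, Cdkn1a and Cdkn1b. The interaction was 0.34 ± 0.10 for Cdk4 (adjusted p = 0.137) and 0.30 ± 0.10 for Cdk6 (adjusted p = 0.194). For Cdkn1a it was -0.265 ± 0.11 (adjusted p = 0.289). Ccnd1 had 0.47 ± 0.21 (adjusted p = 0.298) and Ccnd2 0.13 ± 0.23 (adjusted p = 0.837). The second Cdkn1b probe set, fitted among all probe sets, gave a called interaction (-0.7975, adjusted p = 0.014), where the set used for the gene gave -0.41 ± 0.13 (adjusted p = 0.181).

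Relatives of these genes moved in part alongside. Rbl1, the gene of the pocket protein p107, was lower in KO cells by a log2 difference of -0.77 at day 2 (limma adjusted p = 0.00012) and -0.87 at day 11 (adjusted p = 6.71e-05). Cdk2 (-0.68 and -0.66) and Ccne1 (-0.65 and -0.65), the kinase and cyclin that act after the D cyclins, were called lower at both ages. Rbl2, the gene of p130, differed by 0.02 at day 2 (adjusted p = 0.897) and rose by 0.28 at day 11 (adjusted p = 0.0291). The INK4 gene Cdkn2b gave -0.38 at day 11, a called fall (adjusted p = 0.0372) and differed by -0.22 at day 2 (adjusted p = 0.194; 0.0319 without WT d2 replicate 2), with no call of the interaction (-0.16, adjusted p = 0.643). Both day 11 calls, of Rbl2 and Cdkn2b, were lost when any 1 of the day 11 arrays was left out. Cdkn1c and Cdkn2a gave no call at either age. Cdkn2b (5.215 to 5.73 over the arrays), Cdkn1c (5.359 to 5.692) and Cdkn2a (4.633 to 4.875) were dim. Every value lay under 5.737, the signal that an alternative setting used to leave out dim genes, so a call or its absence says little here.

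The remaining pathway genes are given by list, to be read against all genes, of which 8.86% were higher and 11.2% lower at day 2 and 9.34% and 9.29% at day 11. Rises of G1 genes were near that share. Of 30 G1 and restriction point genes, 14 fell and 3 rose in KO cells at day 2, and 13 fell and 3 rose at day 11, with list medians of -0.24 and -0.21. Cdc25a, a phosphatase that activates CDKs, fell most at both ages (-1.48 ± 0.09 and -1.60 ± 0.09, limma adjusted p = 4.17e-05 and 3.41e-05), from 8.98 and 9.195 in WT d2 to 7.605 and 7.618 in KO d2. The 3 rises became 1 without either WT d2 array or KO d2 replicate 2 at day 2, and without either WT d11 array or KO d11 replicate 2 at day 11. E2f8 (-0.88 and -1.445) and Cks1b (-0.85 and -1.38) followed. Of 6 measured DREAM and MuvB genes, which hold cell cycle genes silent in resting cells or drive them with MYB proteins, 3 fell and 1 rose at day 2 and 2 fell at day 11. The 1 rise, of Lin54, was lost in 5 of 17 alternative settings, among them without either WT d2 array or without KO d2 replicate 1. The fall of Lin37 (-0.26 ± 0.08, limma adjusted p = 0.0489) was lost in 14 of 17. Mybl1 (-0.79 and -0.92) and Mybl2 (-0.79 and -0.77) fell at both ages.

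DNA replication and mitosis genes fell nearly without exception. Of 30 replication genes, 29 fell in KO cells at day 2 and 28 at day 11, and none rose; the list medians were -0.79 and -0.95, against -0.03 and -0.002 for all genes. Tk1, which makes thymidine monophosphate, fell most (-1.58 ± 0.19 and -1.75 ± 0.19, limma adjusted p = 0.000723 and 0.000456). Uhrf1, whose promoter is shown above, read 8.345 and 8.404 in WT d2, 7.542 and 7.515 in KO d2, 7.803 and 7.907 in WT d11, and 6.554 and 6.222 in KO d11. All 24 mitosis genes measured fell at both ages, with medians of -0.77 and -1.16, led by the kinesin Kif23 (-1.28 and -1.75). Without KO d2 replicate 1, 26 replication genes and 23 mitosis genes were called lower at day 2. From day 2 to day 11, 17 of the 30 replication genes and 19 of the 24 mitosis genes were called lower in KO cells. In WT cells limma called 8 and 0 lower, and 18 and 14 were lower at an unadjusted p under 0.05. Of all genes, limma called 6.71% lower with age in KO cells and 2.49% in WT cells. The share of all genes at the unadjusted threshold is not given here. The WT count of replication genes was 1 or 2 without any 1 WT array, and that of mitosis genes was 7 without either KO d11 array and 9 in a fit of the 4 WT arrays alone. The KO counts ran from 13 to 22 for replication genes and from 11 to 21 for mitosis genes over the alternative settings, and the 11 came from a fit of the 4 KO arrays alone. For the interaction limma called no gene of either list, with 9 of 30 lower and 3 higher, and 8 of 24 lower, at an unadjusted p under 0.05. On the KO arrays, where the replication and mitosis genes were low, Ccnd1 was thus high, while Ccnd2 and Cdk6 were low.

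**Figure D4:**
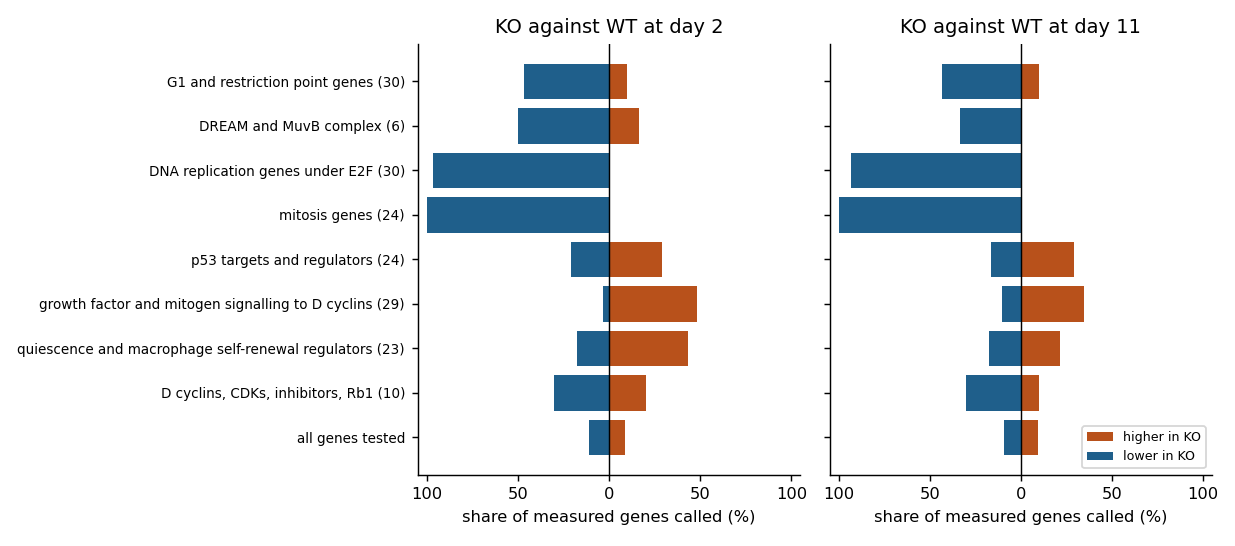
Share of the measured genes of each list (number in brackets) called higher (right of 0) or lower (left of 0) in KO cells, in percent, at day 2 and day 11, beside all genes tested. Replication (29 and 28 of 30) and mitosis (24 of 24 at both ages) genes were lower. Of 29 genes of growth factor and mitogen signalling, feedback inhibitors among them, 14 and 10 were higher.

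The p53 list moved both ways, with 7 of 24 higher and 5 lower at day 2 (all genes 8.86% and 11.2%) and 7 higher and 4 lower at day 11 (all genes 9.34% and 9.29%). The 7 at day 11 became 4 without WT d11 replicate 2 or KO d11 replicate 2, the 4 became 2 without either WT d11 array, and the 5 at day 2 became 3 without WT d2 replicate 2. Plk2, a polo-like kinase, rose most (1.99 ± 0.08 and 2.135 ± 0.08, limma adjusted p = 5.85e-06 and 7.08e-06). Gadd45b, a stress gene, rose by 1.795 and 1.42. Phlda3, a p53 target that restrains AKT, fell by -2.77 ± 0.19 at day 2 (adjusted p = 5.54e-05), reading 9.137 and 8.968 in WT d2 against 5.97 and 6.59 in KO d2, and by -0.89 ± 0.19 at day 11 (adjusted p = 0.0136). That day 11 call was lost without WT d11 replicate 2 or KO d11 replicate 1. Cdkn1a and Phlda3, both known as p53 targets, thus went opposite ways at day 2.

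Of 29 genes of growth factor and mitogen signalling to D cyclins, feedback inhibitors among them, 14 were higher and 1 lower at day 2. At day 11, 10 were higher and 3 lower. Both are to be read against the same shares of all genes. The day 2 counts were 14 and 2 without KO d2 replicate 1. The 14 became 9 without WT d2 replicate 2, and the 10 became 5 or 6 without either WT d11 array or KO d11 replicate 1. The 1 lower gene at day 2, Mycn (-0.31 ± 0.09, limma adjusted p = 0.045), lost its call in 13 settings, and the 3 at day 11 became 1 without either WT d11 array or KO d11 replicate 2. Csf1r, the receptor of macrophage colony-stimulating factor, rose by 1.03 ± 0.08 at day 2 (limma adjusted p = 0.000129), from 10.23 and 10.23 to 11.28 and 11.24. Spry1, a feedback inhibitor of receptor tyrosine kinase signalling, rose by 0.93 ± 0.23 at day 2 (adjusted p = 0.0236) and 1.03 ± 0.23 at day 11 (adjusted p = 0.0156), and lost each call when single arrays were left out (3 settings at each age). Csf3r, the receptor of granulocyte colony-stimulating factor, was higher at day 2 (1.29 ± 0.21, adjusted p = 0.00321) and lower at day 11 (-1.27 ± 0.21, adjusted p = 0.00381). Neutrophil markers moved with it at day 2, as given above, and their part in it was not tested.

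Regulators of quiescence and macrophage self-renewal were higher for 10 of 23 and lower for 4 at day 2, and higher for 5 and lower for 4 at day 11. The day 2 counts were 8 and 5 without KO d2 replicate 1, without WT d2 replicate 2 the 10 became 6, and without WT d2 replicate 1 or KO d2 replicate 2 the 4 became 2. Maf, a transcription factor of macrophages, read 5.742 and 5.834 in WT d2 and 8.56 and 7.802 in KO d2, a rise of 2.39 ± 0.26 (limma adjusted p = 0.000502). Smad3, which carries TGF-beta signals, rose by 1.51 ± 0.07 at day 2 (adjusted p = 9.48e-06). Klf4 rose at day 11 (0.77 ± 0.09, adjusted p = 0.00059). Id1 (-0.74 and -0.72), an inhibitor of differentiation factors, and Klf10 (-0.71 and -0.86), a TGF-beta response gene, fell at both ages.

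Among the genes searched, St8sia4, Abtb2 and Plau had the pattern over the 8 arrays most like that of Ccnd1. St8sia4 is a polysialyltransferase and Plau the urokinase gene. The search left out symbols of predicted genes, clone names, small RNAs, olfactory and vomeronasal receptors, and immunoglobulin and T cell receptor segments. Likeness is the root mean square distance between log2 values centred on each gene's mean, which was 0.10 for St8sia4, 0.14 for Abtb2 and 0.19 for Plau. St8sia4 read 7.558 and 7.533 in WT d2, 9.384 and 9.295 in KO d2, 7.073 and 7.211 in WT d11, and 9.046 and 9.483 in KO d11. Those most like Ccnd2 were Fam89a (0.24), Fam189a2 (0.25) and Mccc2 (0.29), the last a subunit of an enzyme of leucine breakdown. Fam89a read 8.284 and 8.636 in WT d2, 5.883 and 6.285 in KO d2, 8.734 and 8.73 in WT d11, and 6.441 and 6.456 in KO d11. With 4 groups and 8 arrays, many genes that differ by genotype alone come close to such a pattern.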

How the data were processed

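RNA of sorted lung macrophages was hybridised to 8 Affymetrix whole-transcript arrays, 2 for each of 4 groups, each a pool of 2 mice. Per the submitters' processing notes, the authors used R 2.15.2 and RMA, and the deposited values are log2 signals. RMA gives the arrays 1 common distribution, so a shift of all genes at once cannot be seen. Whether probes were combined per exon or per transcript is unknown here, and the number of arrays limits the precision.

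Of 28874 probe sets, 21159 had 1 gene symbol, 1881 had several and 5834 none; 21129 matched RefSeq (GRCm38.p6) by Entrez identifier, and no symbol changed. The probe set with the highest mean was used for each of 18782 genes, of which 1368 had several. Limma 3.58.1 in R 4.3.3 fitted 1 mean per group over all 8 arrays (4 residual and 3.77 prior degrees of freedom), and adjusted p-values are limma's after Benjamini-Hochberg adjustment over 18782 genes in each of 7 contrasts. The procedure was tested on simulated data. Sums and figures used Python 3.11.15 with pandas 2.3.3 and matplotlib 3.10.9.

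The 10 genes, the 7 pathway lists and the 13 marker lists were chosen with earlier results of these data known. Named list genes are up to 3 called rises and 3 called falls with arrays that do not overlap, per list and contrast; of these, the text gives some. The 3 genes nearest in pattern are named for genes with a called difference of at least 2-fold. Alternatives were leaving out each array, a replicate block, a trend with a robust prior, the 4 arrays compared alone, a filter on dim genes, the mean of all probe sets, adjustment over all probe sets, cyclic loess, array weights, the mean of 3 Y-linked genes as a covariate, and a minimum of 2-fold.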

Additional observations from a re-analysis of the deposited data

Results flagged for a closer look

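Groups of 2 arrays are too small to test any array as an outlier. Genes appear here because their genotype difference changed between day 2 and day 11 by limma's interaction term (KO minus WT at day 11, less the same at day 2). Monocyte, dendritic cell and neutrophil markers also moved with that term (4 of 9, 6 of 12 and 6 of 11 called lower). It called 3.27% of all genes in either direction. The part of these markers' cells in the values below was not tested.

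In the p53 list the interaction was 1.8865 for Phlda3 (adjusted p = 0.0111) and 0.955 for Gadd45a (adjusted p = 0.0072), a growth arrest gene that read 7.469 and 7.668 in KO d2 and 8.56 and 8.587 in KO d11. It was 0.6775 for Polk (adjusted p = 0.0464), a lesion-bypass DNA polymerase, -0.844 for Pmaip1 (adjusted p = 0.0231), a pro-apoptotic gene, and -0.495 for Btg2 (adjusted p = 0.0264), an anti-proliferative gene. In the growth factor list it was -2.565 for Csf3r (adjusted p = 0.00443), -0.9925 for Flt3 (adjusted p = 0.0293) and -0.6 for Csf1r (adjusted p = 0.0403). Among quiescence regulators it was -1.297 for Smad3 (adjusted p = 0.000798), which read 7.271 and 7.345 in KO d2 against 5.795 and 5.817 in KO d11, and -0.717 for Id3 (adjusted p = 0.0292). The second probe set of Cdkn1b had -0.7975 (adjusted p = 0.014 over all probe sets). The calls of Gadd45a, Csf3r and Smad3 were kept in every alternative, and the other 7 list genes lost theirs in 3 to 12 of them. Flt3 (4.282 to 5.507 over the arrays) and Id3 (4.908 to 5.529) were dim. Their values all lay under 5.737, the signal used by the filter on dim genes.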

How the results depend on the processing

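Over all 10 genes, 7 contrasts and 17 alternative settings (the 4-array fit has no interaction), 1123 of 1180 values kept their side of the threshold. In 38 a call was lost and in 19 one was gained. No called value changed sign, while 22 values that were called in neither setting did. The calls of Ccnd1, Ccnd2 and Cdk6 at both ages, and of Cdkn1a at day 2, were kept in all 17. Beside the losses given in the report, Cdkn2c lost its day 2 call with cyclic loess (adjusted p = 0.0507) and with the Y-linked covariate (0.0623), and Cdkn2d lost its WT age call in 10 settings. Cdk6 lost its KO age call with the Y-linked covariate (0.0572). Cdkn1b at day 2 was called in 8 settings, with adjusted p down to 0.0199, and Cdkn1a at day 11 with a trend and robust prior (0.0319).

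A minimum of 2-fold left 2 genes, Ccnd1 and Ccnd2, called at day 2, at day 11, in KO d11 against WT d2 and in KO d2 against WT d11, and 0 in both age comparisons. Leaving out 1 array gave 0 to 2 calls for age in WT cells and 3 to 5 in KO d2 against WT d11 (3 without KO d2 replicate 2). The Y-linked covariate gave 0 calls for age in WT cells. The mean of all probe sets of a gene gave 1 call of the interaction, Cdkn1b (adjusted p = 0.0299). A fit with the replicate number as a block gave 6 calls at day 2, 4 at day 11 and 1 for age in WT cells. Nothing in the labels ties arrays of the same number together. Deviations of same-numbered arrays correlated between -0.08 and 0.25 over 6 pairs of groups. The highest were WT d2 with KO d2 (0.25) and KO d2 with KO d11 (0.24). Whether same-numbered arrays share a litter or a day was not tested.

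List counts were recomputed under the same settings, an alternative added after the data were seen. Replication genes lower in KO went from 23 to 29 at day 2 and from 24 to 29 at day 11, and mitosis genes from 21 to 24 at day 2 and stayed at 24 at day 11. Genes of growth factor and mitogen signalling higher in KO went from 9 to 15 and from 5 to 11. Quiescence genes higher in KO went from 6 to 11 and from 4 to 7, and p53 genes from 6 to 8 and from 4 to 7. G1 genes lower in KO went from 10 to 15 and from 9 to 14.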
